A study of Mus musculus with 3 samples.

Results

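The 41 genes described here drive the cell through DNA replication and division, and all 41 were listed in each of 3 single-cell matrices, out of 16267 genes that the matrices share and 19039 listed in any of them. They were chosen by name and not by a cut on their values, though with earlier results of these data known. Of the 41, 17 are G1/S members, whose transcripts peak as cells enter DNA synthesis, 22 are G2/M members, whose transcripts peak towards mitosis, and Ccna2 (cyclin A2, active from S phase to G2) and Stmn1 (stathmin, a microtubule destabiliser) were kept outside both lists.

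The matrices came from a droplet experiment on microglia, the resident macrophages of the brain, in which RNA, 35 surface antibodies and the hashtags of 8 samples were read from 1 pool. All mice were C57Bl/6 females of 2 to 3 months that carried Cx3cr1CreERT, a tamoxifen-inducible Cre driven in Cx3cr1-expressing cells. Mice labelled depleted carried in addition ROSA-iDTR, a Cre-dependent diphtheria toxin receptor, and mice labelled control did not. Both arms were given tamoxifen, followed by 1 month without it, and both were then given diphtheria toxin. Some mice were naive. Others received cells of E0771, a mammary tumour line of the mouse, through the carotid artery and were sampled after about 2 weeks. Each hashed sample was 1 brain hemisphere or peripheral blood, and depletion was not complete, per the submitters.

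The naive brain matrix held 2653 cells and the blood matrix, named for mice with metastases, 2924, both with the arm of every cell. The brain with metastases held 5933 cells with no arm, which were treated as 1 pooled sample. Each arm was a single hashed sample in each tissue, so arms have no replicate and were not tested. The intervals below are exact 95% intervals that cover counting error only. Where no cell was found, the limit is 3 cells over the number of cells. Levels are UMIs per 10000 corrected UMIs summed over the cells of a class (CP10k). UMIs count transcripts at their 3' end, so they carry no length term, but each gene was corrected for depth by the authors on its own. Barcodes were shared between matrices: 339 between naive brain and blood, 578 between brain with metastases and blood, 518 between the 2 brain matrices and 84 between all 3. The 111 tumour-like cells of the naive brain and the microglia-like and tumour-like cells of the blood were shared in 72.1%, 82.7% and 83.9% of cases. Values without shared barcodes are given beside some shares of cells only. The other values of these groups include shared barcodes and are not independent between matrices. In the naive brain, Cx3cr1 in microglia-like cells was 1.72 CP10k in cells labelled control and 10.0 in cells labelled depleted, which goes against those labels, so arms are named by label only.

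As background, cells commit to division when cyclin-dependent kinases inactivate the retinoblastoma protein and release E2F factors, which switch on genes for origin licensing (the Mcm helicase), nucleotide supply and cyclin E. Later genes, for cyclin B and its kinase Cdk1, the spindle and the checkpoint that guards it, are repressed in resting cells through a promoter element called the CHR and activated together with CCAAT-binding NF-Y. In the brain microglia renew themselves slowly, neutrophils in blood have left the cycle, and T cells divide after they meet antigen.

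The promoters of the G1/S and G2/M members with the highest levels in tumour-like cells, a pair from each list, are shown so that the letters searched can be seen in place. Each is the 250 bases before the annotated start, 5' to 3' on the gene's strand, from RefSeq on GRCm38.p6. Capitals mark every match, on either strand, to the E2F cores TTCCCGC and TTGGCGC, the CHR core TTTGAA and CCAAT. Dut, which removes dUTP from the nucleotide pool, lies at chr2:125247265-125247514 on the + strand, Rrm2, the regulated subunit of ribonucleotide reductase, at chr12:24708004-24708253 (+), Hmgb2, a chromatin protein, at chr8:57511593-57511842 (+), and Ube2c, the ubiquitin-conjugating enzyme of the anaphase-promoting complex, at chr2:164769679-164769928 (+).
Dut: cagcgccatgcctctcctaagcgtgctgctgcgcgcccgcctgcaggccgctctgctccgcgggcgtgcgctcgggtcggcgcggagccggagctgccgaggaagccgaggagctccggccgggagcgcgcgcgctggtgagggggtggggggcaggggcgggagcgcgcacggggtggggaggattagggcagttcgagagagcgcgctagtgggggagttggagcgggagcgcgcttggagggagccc
Rrm2: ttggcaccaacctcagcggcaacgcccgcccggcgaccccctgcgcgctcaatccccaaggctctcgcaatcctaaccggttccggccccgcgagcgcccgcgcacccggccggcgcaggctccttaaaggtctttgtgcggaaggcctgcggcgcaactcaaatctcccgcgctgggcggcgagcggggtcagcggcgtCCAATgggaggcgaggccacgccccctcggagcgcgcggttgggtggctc
Hmgb2: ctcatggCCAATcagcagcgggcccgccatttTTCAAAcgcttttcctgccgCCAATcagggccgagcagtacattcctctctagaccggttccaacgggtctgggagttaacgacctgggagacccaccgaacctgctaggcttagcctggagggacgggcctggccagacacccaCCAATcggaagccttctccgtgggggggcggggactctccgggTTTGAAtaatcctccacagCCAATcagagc
Ube2c: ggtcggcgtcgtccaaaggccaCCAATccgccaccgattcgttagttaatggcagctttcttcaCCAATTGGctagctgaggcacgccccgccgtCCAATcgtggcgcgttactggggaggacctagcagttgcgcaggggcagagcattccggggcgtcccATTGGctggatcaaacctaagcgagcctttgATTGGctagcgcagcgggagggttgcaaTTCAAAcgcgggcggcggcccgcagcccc
The Dut window held none of the 4 letter strings and the Rrm2 window held 1 CCAAT. Hmgb2 held 4 CCAAT and 2 TTTGAA. Ube2c held 6 CCAAT, of which 1 pair on opposite strands overlapped, and 1 TTTGAA. Among the members found in the RefSeq table, TTTGAA was present in 8 of 20 G2/M genes and 1 of 14 G1/S genes, against 16% of all 32851 promoters of the same length. CCAAT was present in 18 of 20 G2/M genes and 9 of 14 G1/S genes, against 33.8%. Either E2F core was present in 3 of 20 G2/M genes and 5 of 14 G1/S genes, against 5.62%. A match is a match of letters only.

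The authors' depth correction listed some of these genes in droplets that had few of their molecules, and this sets which members can be read cell by cell. In 100 shared droplets with fewer than 4000 raw UMIs, Stmn1 was listed in the matrix of the brain with metastases but at 0 for the same droplet elsewhere in 89% of cases. The same share was 52% for Dut, 50% for Cenpa (the centromere histone), 48% for Birc5 (survivin), 37% for Top2a (topoisomerase II alpha) and 33% for Ube2c. Among 996 deeper droplets it lay between 1.41% (Birc5) and 4.72% (Dut and Stmn1) for these 6 genes. Hmgb2 was listed in all naive brain cells with fewer than 1000 raw UMIs. These 7 genes are called filled in below, and shares of cells are given over the other 17 G2/M and 16 G1/S members beside the full lists. Pcna was not counted as filled in, since its share was 0% in the shallow droplets. Among the 996 deeper droplets, however, its share was 11.3%, and that of Hmgb2 was 12.1%. A cell with at least 3 members of the G2/M list is called a G2/M cell.

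**Figure D1:**
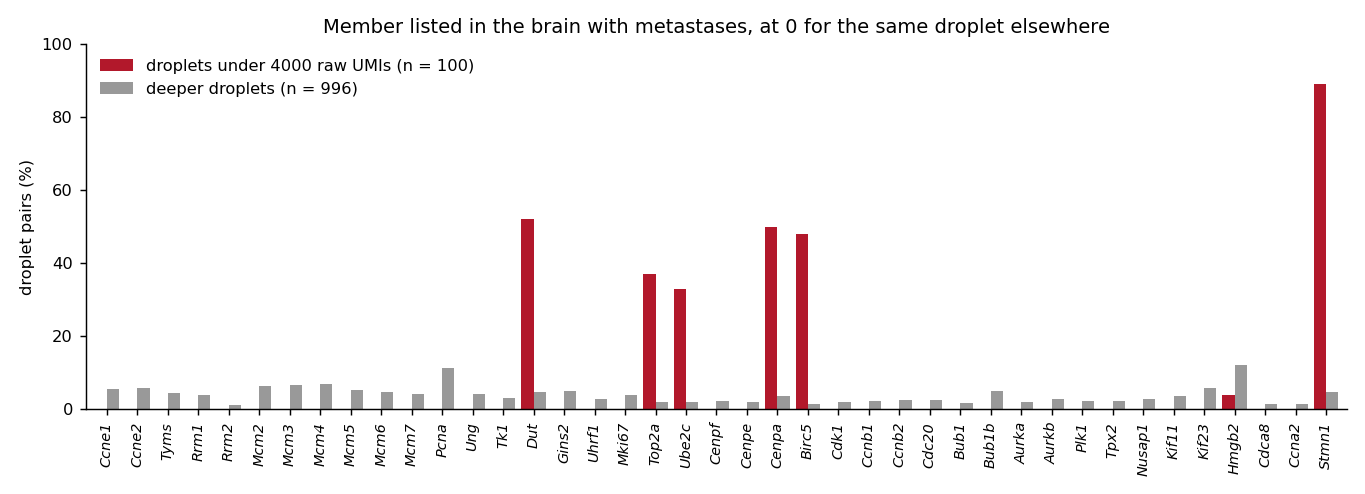
Share of shared droplets (vertical axis, %) in which each member (horizontal axis) was listed in the brain with metastases and at 0 for the same droplet in another matrix, for shallow droplets (fewer than 4000 raw UMIs) and deeper ones. Stmn1 reaches 89% in shallow droplets, followed by Dut at 52% and Cenpa at 50%.

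In the brain with metastases, tumour-like cells were the class with the most members of both lists. This class held 1165 cells in which the 8 listed epithelial and tumour markers present summed to 24.6 CP10k, and 3 of the 8 were above 0.5 CP10k. It was found by clustering without the members and the other cell cycle lists, yet cell cycle genes still led some of its clusters, so differences between classes are descriptions. By the full list of 22, 87.6% (85.5 to 89.4) of tumour-like cells were G2/M cells, and by the 17 genes that were not filled in 82.3% (80.0 to 84.5). T-like cells (937) had 45.4% by 22 genes but 11.4% (9.45 to 13.6) by 17. Microglia-like cells (448) had 32.1% and 11.8% (8.99 to 15.2), monocyte/macrophage-like cells (739) 27.6% and 7.71% (5.89 to 9.88), and NK-like cells (328) 29.0% and 3.35% (1.69 to 5.92). Neutrophil-like cells, the class that should lack these transcripts, had 39.3% by 22 genes and 3.70% (1.21 to 8.43) by 17, at a median of 2158 genes per cell against 2475.5 in NK-like cells. The NK-like share by 17 genes was no higher than the neutrophil-like share. The 11 NK-like G2/M cells had a median of 7 G2/M and 9 G1/S members, with up to 17 G2/M members, whereas the 5 neutrophil-like ones had medians of 3 and 0 and at most 4 G2/M members. Without shared barcodes the shares by 17 genes were 81.7% in tumour-like, 10.7% in T-like, 12.2% in microglia-like, 6.60% in monocyte/macrophage-like and 3.34% in NK-like cells.

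Cells with many members at once separated the classes further. At least 10 of the 17 genes were found in 709 tumour-like cells (60.9%), 47 T-like cells (5.02%, 3.71 to 6.61), 24 microglia-like cells (5.36%, 3.46 to 7.87), 20 monocyte/macrophage-like cells (2.71%, 1.66 to 4.15) and 4 NK-like cells (1.22%, 0.333 to 3.09). None of 135 neutrophil-like cells did, which allows a share of up to 2.22%, and none of 161 nonclassical monocyte-like cells, which allows up to 1.86%; the exact upper bounds are 2.70% and 2.27%. The intervals of T-like and microglia-like cells lay above both neutrophil-like bounds, whereas those of monocyte/macrophage-like and NK-like cells did not.

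**Figure D2:**
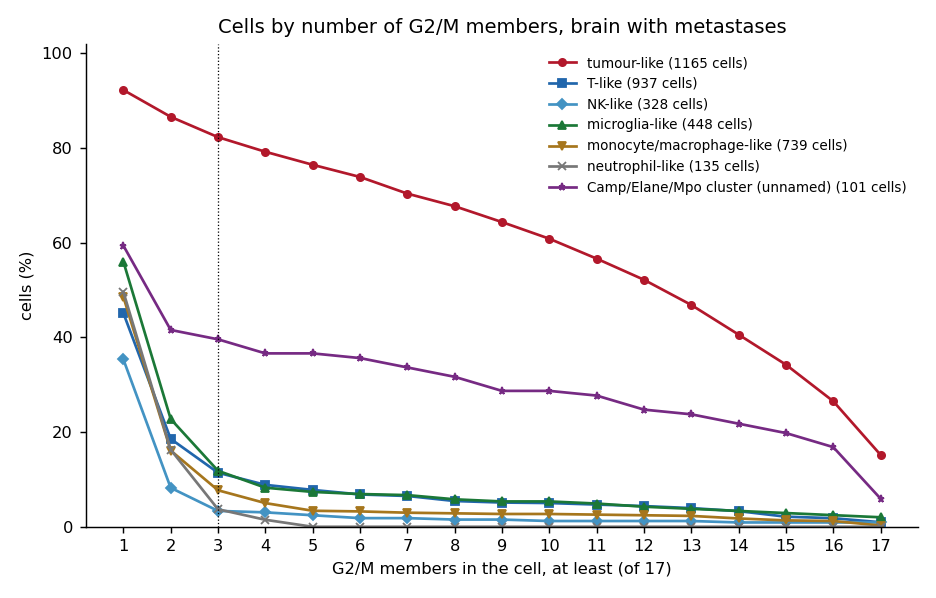
Share of cells (vertical axis, %) with at least the number of G2/M members on the horizontal axis, of the 17 that were not filled in, by class in the brain with metastases; the dotted line marks 3 members. At 10 members the tumour-like curve stands at 60.9%, the T-like at 5.02%, the microglia-like at 5.36% and the neutrophil-like at 0.

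Most of the non-tumour cells with G2/M members also had members of the replication list. A G1/S cell, with at least 3 of 16 G1/S members, was found in 92.4% (90.8 to 93.9) of tumour-like, 30.3% of T-like, 26.3% of microglia-like, 21.0% of NK-like and 19.6% of monocyte/macrophage-like cells, and in 1 of 135 neutrophil-like cells (0.741%). Among G2/M cells, 99.3% of the tumour-like, 75.7% of the T-like, 66.0% of the microglia-like and 68.4% of the monocyte/macrophage-like cells were also G1/S cells. In the reverse direction 88.4% of tumour-like G1/S cells were G2/M cells, against 28.5% in T-like and 29.7% in microglia-like cells.

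The balance of the lists differed between classes. Over the members that were not filled in, the summed G2/M level divided by the summed G1/S level was 1.56 in tumour-like cells (24.1 over 15.4 CP10k) and 1.70 in microglia-like cells (3.92 over 2.30). It was 0.787 in T-like cells (3.46 over 4.39) and 0.502 in NK-like cells (1.33 over 2.65). In these sums, the T-like and NK-like classes had more replication transcripts than mitotic ones, and the tumour-like and microglia-like classes the reverse. In the naive brain these quotients were 1.78 in tumour-like and 1.97 in microglia-like cells, above 1, and 0.508 in T-like and 0.519 in NK-like cells, below 1. Most of those naive tumour-like cells had barcodes shared with another matrix, so the 2 tumour-like quotients are not independent.

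Among the replication enzymes, the nucleotide-supply genes were higher in tumour-like cells than in the other named classes. Rrm2 was 1.74 CP10k (1.68 to 1.81) in tumour-like cells, 0.256 in T-like, 0.104 in NK-like, 0.109 in microglia-like, 0.0631 in monocyte/macrophage-like and 0.0718 in neutrophil-like cells. Tk1 (thymidine kinase) was 1.52 CP10k in tumour-like, 0.183 in microglia-like and 0.173 in T-like cells. Tyms (thymidylate synthase) was 0.931 in tumour-like and 0.299 in T-like cells, and was listed at 0 in neutrophil-like cells.

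The helicase subunits and initiation factors differed in their lead. Mcm6 was 0.833 CP10k (0.790 to 0.878) in tumour-like, 0.646 (0.602 to 0.693) in T-like and 0.469 in NK-like cells, the smallest lead of the tumour-like class among the 16 G1/S members it led over the named classes. Mcm4 was 0.588 in tumour-like and 0.383 in T-like cells. Mcm2, Mcm3, Mcm5 and Mcm7 were 0.728, 1.36, 1.13 and 1.37 CP10k in tumour-like cells against 0.236, 0.451, 0.351 and 0.314 in T-like cells. Gins2, which joins Mcm in the active helicase, was 0.760 and 0.123, and Uhrf1, which carries DNA methylation through replication, was 1.05 and 0.143. The G1/S switch itself was low everywhere: Ccne1 (cyclin E1) reached 0.525 CP10k in tumour-like and 0.0965 in T-like cells, and Ccne2 reached 0.259 and 0.0442.

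Pcna, the sliding clamp of the polymerase, was the G1/S member that did not follow the others. It was 0.374 CP10k (0.345 to 0.405) in tumour-like, 0.483 (0.445 to 0.524) in T-like, 0.436 (0.397 to 0.478) in monocyte/macrophage-like, 0.395 in microglia-like, 0.341 in NK-like and 0.104 in neutrophil-like cells. The T-like level was the highest among the named classes and its interval did not reach that of tumour-like cells. Per cell the order was different, since 40.9% of tumour-like and 30.4% of T-like cells had Pcna. In 11.3% of the 996 deeper shared droplets Pcna was listed in this matrix but at 0 elsewhere. The part of the depth correction in its levels was not tested.

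Among the mitotic kinases and cyclins, Cdk1 was 2.81 CP10k (2.72 to 2.89) in tumour-like cells, 0.318 in microglia-like, 0.249 in T-like, 0.125 in monocyte/macrophage-like and 0.102 in NK-like cells. Its partners Ccnb1 and Ccnb2 were 1.21 and 1.34 CP10k in tumour-like, and 0.116 and 0.294 in T-like cells. Aurka, a centrosome kinase, was 1.00 in tumour-like cells and at most 0.0784 in the named classes beside it, 12.8-fold lower. Bub1, a spindle checkpoint kinase, was 0.862 with a 12.6-fold lead. Tpx2, the activator of Aurka on the spindle, was 2.24 with an 11.9-fold lead. Plk1 was 0.795 in tumour-like cells and 0.0833 in microglia-like cells. Ccna2 was 2.45 with a 10.1-fold lead.

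Kinetochore and spindle members showed the same order. Cenpf and Cenpe, which link chromosomes to the spindle, were 3.75 and 1.75 CP10k in tumour-like cells and 0.441 and 0.261 in microglia-like cells. Cdca8 and Aurkb, of the chromosomal passenger complex, were 2.05 and 0.953, against 0.260 and 0.0931. Cdc20, which activates the anaphase-promoting complex, was 1.96 and 0.202. Among the named classes, tumour-like cells were highest in 16 of 17 G1/S and 20 of 22 G2/M members and in Ccna2 and Stmn1. The unnamed cluster 15, led by Camp and Ngp, had a higher level than every named class in Pcna (0.491 CP10k), Mki67, Hmgb2, Nusap1, Stmn1 and Kif11 (0.704, against 0.702 in tumour-like cells, a difference within the counting intervals).

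**Figure D3:**
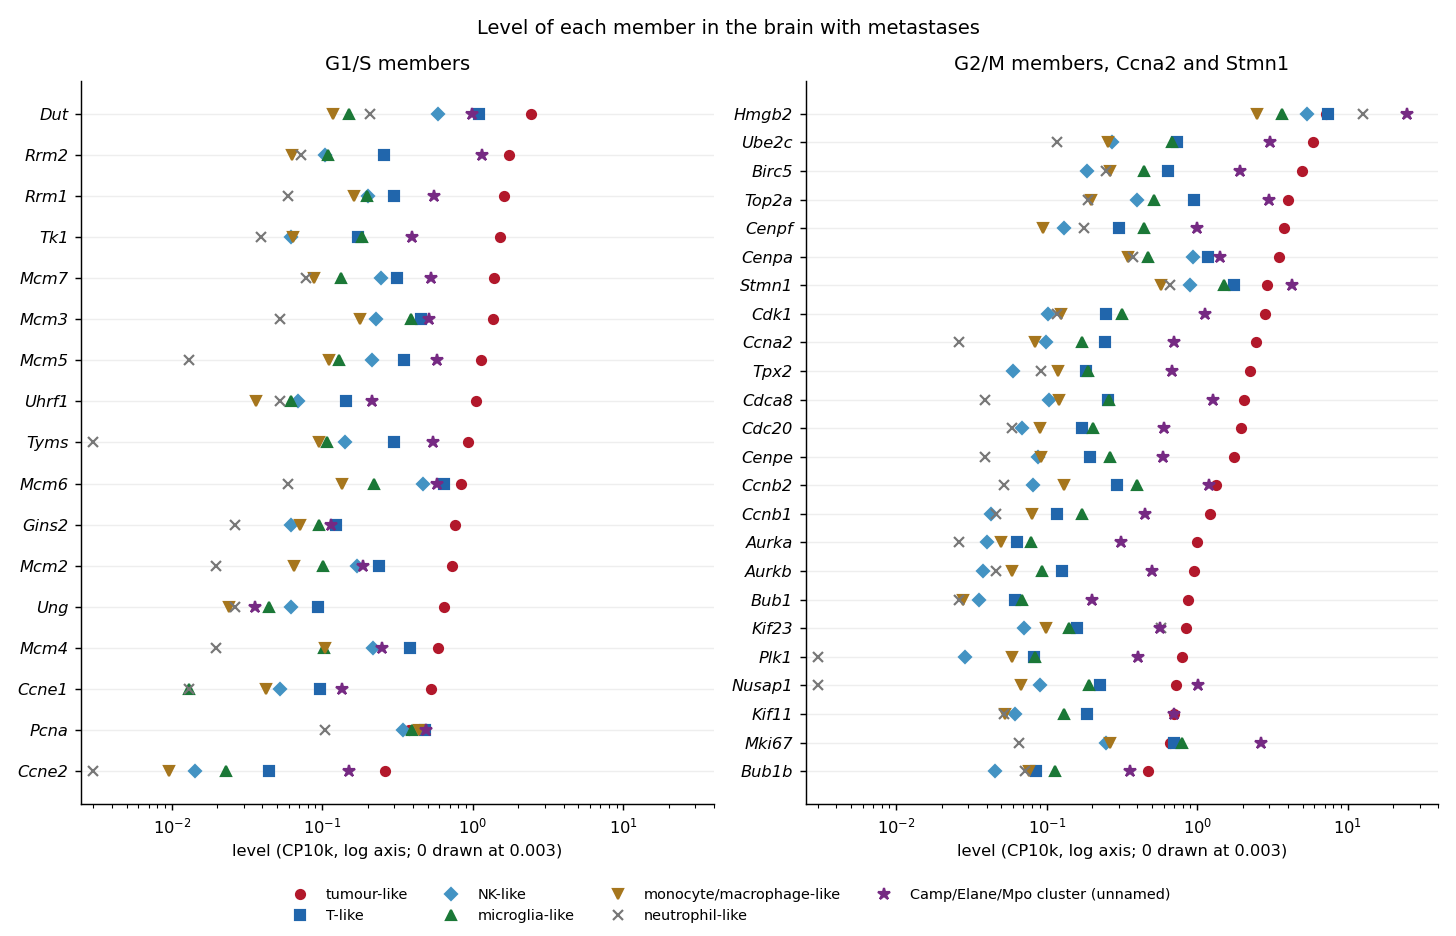
Level of each member (horizontal axis, CP10k, log scale) in 6 classes and the unnamed Camp/Elane/Mpo-led cluster of the brain with metastases, with G1/S members on the left and G2/M members, Ccna2 and Stmn1 on the right. Tumour-like cells (circles) stand to the right of the named classes for most genes, except Pcna, Mki67 and Hmgb2.

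The exceptions on the G2/M list were Mki67 and Hmgb2. Mki67, which coats mitotic chromosomes and is the usual proliferation marker, was 0.785 CP10k (0.717 to 0.859) in microglia-like, 0.705 (0.659 to 0.754) in T-like and 0.654 (0.615 to 0.694) in tumour-like cells, although 50.6% of tumour-like and 16.3% of microglia-like cells had it. Hmgb2 was 12.6 CP10k in neutrophil-like, 7.35 in T-like and 7.19 in tumour-like cells, and 100% of neutrophil-like cells had it. Kif23, a cytokinesis motor, was 0.574 CP10k (0.461 to 0.708) in neutrophil-like cells, in 26.7% of them, against 0.844 in tumour-like cells. In the blood Kif23 was 1.61 CP10k in neutrophil-like cells labelled control and 1.34 in those labelled depleted, above the 0.620 and 0.814 of tumour-like cells there, while Cdk1 was 0.107 and 0.140. Among blood neutrophil-like cells, 24.1% with Mki67 had Kif23, against 34.5% without it, so it did not come with Mki67 in that class.

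The ratio of Mki67 to Cdk1 UMIs set tumour-like cells apart from the other classes compared. It was 0.23 (0.22 to 0.25) in tumour-like cells and 2.84 (2.49 to 3.24) in T-like, 2.47 (2.08 to 2.93) in microglia-like, 2.42 in NK-like and 2.11 in monocyte/macrophage-like cells of the brain with metastases. In the naive brain it was 0.27 in tumour-like, 2.31 in T-like, 2.89 (2.54 to 3.29) in microglia-like and 3.47 in monocyte/macrophage-like cells. The ratio of any pair of genes rests on each gene's own depth correction. Tumour-like cells were also the deepest, with a raw median of 159743 UMIs in their G2/M cells in the naive brain against 21090.5 in microglia-like G2/M cells. Among cells with at least 40000 raw UMIs in the naive brain the ratio was 0.267 (0.214 to 0.331) in tumour-like and 3.13 (2.38 to 4.16) in microglia-like cells, and in the blood 0.206 and 1.95 (1.31 to 2.95). Most tumour-like cells of the naive brain and the blood, and most microglia-like cells of the blood, had barcodes shared with another matrix. Their values are therefore not independent between matrices. The ratio moved with depth within classes: in naive T-like cells it was 1.17 (0.730 to 1.87) below 10000 raw UMIs and 3.53 (2.39 to 5.33) from 10000 to 40000. Below 10000 raw UMIs in the blood it was 0.714 (0.179 to 2.61) in microglia-like cells, from 5 Mki67 UMIs and 7 Cdk1 UMIs, and 0.5 (0.134 to 1.61) in T-like cells. The part of depth in the ratio was not tested.

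**Figure D4:**
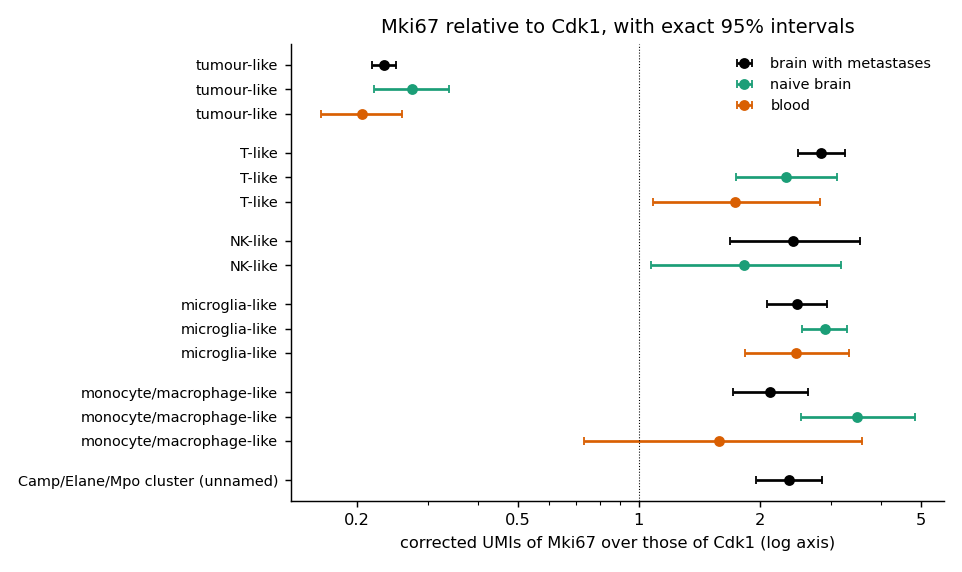
Ratio of Mki67 to Cdk1 UMIs by class in the 3 matrices, with exact 95% intervals. Tumour-like cells lie near 0.2 to 0.3 in every matrix and T-like, microglia-like and monocyte/macrophage-like cells above 1. Most tumour-like cells of the naive brain and the blood had barcodes shared with another matrix, so their values are not independent between matrices.

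Within the non-tumour classes the members came together in the same cells. Cdk1 was found in 39.7% of microglia-like cells with Mki67 and 11.7% of those without it, in 43.6% and 5.25% of T-like cells, in 31.8% and 4.74% of monocyte/macrophage-like cells and in 30.4% and 4.26% of NK-like cells. In naive microglia-like cells it was in 54.2% and 9.87%, and those with Mki67 had a mean of 7.39 other G2/M members of the 17, against 0.598 in the rest. In blood neutrophil-like cells the shares were 6.90% (2 of 29 cells) and 4.06%. Depth differed as well. In naive microglia-like cells the raw median was 21090.5 UMIs in G2/M cells and 13419.5 in the others, and in naive T-like cells 14629.5 and 6365. In T-like cells of the brain with metastases the medians were 3729 and 2529.5 genes per cell. The part of depth in this co-detection was not tested.

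G2/M cells of the microglia-like class had microglia markers, and in the brain matrices their summed tumour markers were near those of the other microglia-like cells. In the brain with metastases the 9 microglia markers summed to 142 CP10k in the 53 G2/M cells and 162 in the other 395, and the 8 tumour markers to 0.334 and 0.283. Krt8, a keratin of the tumour-like class, was found in 7.55% and 5.06%. In the naive brain the tumour markers summed to 0.232 CP10k in 108 G2/M cells and 0.311 in the other 712, and B cell markers to 44.4 and 16.8; the part of B cell RNA in that group was not tested. In the blood, where 82.7% of microglia-like cells were shared, the microglia markers summed to 74.4 CP10k in 41 G2/M cells and 90.7 in the other 427, the tumour markers to 1.15 and 0.260, and B cell markers to 40.2 and 5.59. Krt8 was found in 7.32% and 2.11% of those blood cells, and the part of tumour RNA in them was not tested. In T-like cells the 10 T markers summed to 48.8 in G2/M cells and 35.3 in the rest, the tumour markers to 0.410 and 0.783, and NK markers to 14.8 and 3.35. No doublet caller was run.

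Tumour-like cells fell into 3 clusters that differed in these genes. The first, cluster 0 (409 cells, led by Sox9 and Adm), had 57.5% (52.5 to 62.3) G2/M cells by 17 genes, cluster 7 (400 cells, led by Cdc20 and Esx1) had 92.0% and cluster 8 (356 cells, led by replication-dependent histones) had 100% (99.0 to 100). Cells with at least 10 members were 32.5%, 63.2% and 90.7% of them. Median genes per cell were 4191, 3990.5 and 4128.5. A gene counted as measured when either side reached 0.5 CP10k. From cluster 0 to 7, 22 of 22 measured G2/M members were higher (54.7% of all measured genes were), 12 of them past 2-fold (a step that 1.18% of all measured genes took), with a median log2 ratio of 1.05, and 13 of 15 G1/S members were higher, 2 past 2-fold, with a median of 0.50. Over all measured genes that median was 0.05. From cluster 0 to 8, 14 of 22 G2/M and 4 of 16 G1/S members were past 2-fold higher, against 2.85% of measured genes. In cluster 0, 15 of the 22 G2/M and 14 of the 17 G1/S members reached 0.5 CP10k. The other measured ones counted only through the higher cluster. The clusters were also drawn from these same data, with cell cycle genes leading some. These counts, and those between clusters 7 and 8 below, therefore describe and support nothing.

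Clusters 7 and 8 divided the mitotic list. The histone-led cluster 8 had more Top2a, which untangles replicated DNA (7.59 against 3.16 CP10k, a log2 ratio of 1.24), Aurkb (1.79 against 0.826, 1.03), the spindle motor Kif11 (1.22 against 0.624, 0.87) and Cdk1 (4.59 against 2.79, 0.70), and 15 of 16 measured G1/S members were higher there (47.5% of all measured genes were), the exception being Ung (uracil glycosylase, -0.65). Cluster 7 had more Cdc20 (3.1 against 1.49 CP10k, a log2 ratio of -1.01 for cluster 8 over 7), Ccnb2 (1.95 against 1.11, -0.76) and Cenpa (5.23 against 3.32, -0.64). Past 2-fold were 2 members higher in cluster 8, against 0.722% of measured genes, and 1 lower, against 0.126%. As background, Cdc20 and cyclin B act in mitosis, and the histones that lead cluster 8 are made in S phase.

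Tumour-like cells had more of many genes than the other classes, and the members' counts are given beside that background. Of the 17 G1/S members 2 reached 0.5 CP10k in T-like, 1 in NK-like and none in microglia-like or monocyte/macrophage-like cells, and of the 22 G2/M members 6, 2, 4 and 1 did. Most members therefore counted as measured only through their tumour-like level, so the counts and medians below describe and support nothing. Without that filter, the summed level of the 17 G2/M members that were not filled in was 6.97 times as high as in T-like, 18.1 times as high as in NK-like, and 6.15 times as high as in microglia-like cells, and that of the 16 G1/S members 3.51, 5.82 and 6.70 times. Over monocyte/macrophage-like cells the interval of the G2/M ratio was 14.3 to 15.8 and the G1/S ratio was 9.17. Over T-like cells, 13 of 15 measured G1/S and 19 of 21 measured G2/M members were past 2-fold higher, against 36.1% of all 4120 measured genes, with median log2 ratios of 1.67 and 2.58 against 0.48. Over NK-like cells it was 14 of 15 and 20 of 21, against 38.9%, with medians of 2.09 and 2.99 against 0.60. Over microglia-like cells it was 15 of 15 and 19 of 21, against 40.9%, with medians of 2.42 and 2.51 against 0.62. Over monocyte/macrophage-like cells it was 15 of 15 and 21 of 21, against 39.1%, with medians of 2.55 and 2.91 against 0.57. No measured member was past 2-fold lower in these 4 comparisons, against 24.7%, 22.7%, 26.9% and 28.4% of measured genes. The G2/M median exceeded the G1/S median by most against T-like and NK-like cells and by least against microglia-like cells.

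Further genes of the cycle, from lists chosen by function, were compared in the same way and with the same filter, where 36.1% of measured genes were past 2-fold higher and 24.7% past 2-fold lower. Over T-like cells, 14 of 19 measured licensing and fork genes were past 2-fold higher (Orc6, of the origin recognition complex, 2.44 on the log2 scale; Slbp, which binds histone mRNA, was -0.21), as were 27 of 32 measured further mitotic genes (Anln 3.25 and Cks1b 3.15; Lmnb1 -0.25). Of 9 measured G1 cyclins, kinases and E2F genes 5 were past 2-fold higher, among them Ccnd1 (cyclin D1, 4.71 against 0.577 CP10k) and E2f8, and 1 was past 2-fold lower, Ccnd3 (0.322 against 1.45). Ccnd2 was 2.86 in tumour-like and 3.02 in T-like cells. Of 6 measured inhibitors 3 were past 2-fold lower, including the antiproliferative genes Btg1 (0.374 against 14.4) and Btg2 (0.0436 against 8.12), and 1 higher, Trp53 (2.35 against 0.881). Against microglia-like cells Ccnd2 was 2.86 against 0.139 CP10k. Between tumour-like clusters the G1 list did not go with the members: 5 of its 8 measured genes were lower in cluster 7 than in cluster 0 and 5 of 8 in cluster 8, with median log2 ratios of -0.18 and -0.14.

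T-like cells held more of the members than NK-like cells. The summed level of the 17 G2/M members was 2.60 times that of NK-like cells (2.38 to 2.84) and that of the 16 G1/S members 1.66 times (1.55 to 1.77). Only 6 of 22 G2/M and 2 of 17 G1/S members counted as measured. Of these, 4 and 0 were past 2-fold higher, against 6.41% of measured genes. In NK-like cells only 2 of the 22 G2/M and 1 of the 17 G1/S members reached the level needed to count. The other measured members counted only through their T-like level, so these counts describe and support nothing. Against microglia-like cells the share of G2/M cells was 0.965 times as large (0.688 to 1.37). Among T-like clusters the share was 73 of 560 cells (10.4% to 16.1%) in cluster 16, led by Cd8b1 and Cd8a, 11.9% in cluster 18, led by Xcl1, and 6.25% (3.27 to 10.7) in cluster 10, led by Il17a and Tcrg-C1. Cluster 18 was shared in 55.7% of its cells, and beside T markers at 20.1 CP10k it had neutrophil markers at 54.5, monocyte/macrophage markers at 48.7 and microglia markers at 38.4, whose part in its share was not tested. In the naive brain, where the authors gated cells by surface protein, G2/M cells were 14 of 154 in the CD8+ gate (9.09%, 5.06 to 14.8), 2 of 39 in the CD4+ gate, 1 of 82 among CD3+ cells negative for both (1.22%, 0.0309 to 6.61) and 6 of 155 in the NK1.1+ gate (3.87%). None of those cells was tumour-like.

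Part of 1 small cluster outside the named classes had as many G2/M members as tumour-like cells, but fewer G1/S members. By 17 genes its 40 G2/M cells had medians of 14.5 G2/M and 8 G1/S members. Tumour-like G2/M cells had 13 and 12. Cluster 15 (101 cells, led by Camp, Ngp, Ltf, Elane, Mpo and Prtn3, genes of neutrophil granules made in the marrow) stayed unnamed. Prss34, a listed basophil marker, was also among its leading genes. Above 0.5 CP10k were 3 of 4 basophil and 9 of 11 monocyte/macrophage markers, which summed to 10.4 and 71.4 CP10k. In its G2/M cells monocyte/macrophage markers summed to 108 and neutrophil markers to 1432 CP10k, against 44.3 and 3059 in its other cells. By 17 genes 39.6% (30.0 to 49.8) of its cells were G2/M cells, or 46.2% of the 78 that were not shared, and 28.7% had at least 10 members. Mki67 was 2.66 CP10k (2.40 to 2.94), Hmgb2 24.8 (24.0 to 25.7), Nusap1, which bundles spindle microtubules, 1.01, and Stmn1 4.24, all above tumour-like cells, while Cdk1 at 1.13, Rrm2 at 1.15 and Ccna2 at 0.704 were below them. Its cells were either positive for many members or for hardly any: Cdk1 was found in 34 of 39 cells with Mki67 and 0 of 62 without, and the means were 11.6 and 0.403 other G2/M members. Over neutrophil-like cells, the summed level of the 17 G2/M members was 9.19 times as high (8.0 to 10.6). None of the 17 G1/S and 2 of the 22 G2/M members reached 0.5 CP10k in neutrophil-like cells, so the measured ones were mostly those high in cluster 15, and their counts support nothing. Of them, 8 of 8 measured G1/S and 14 of 16 measured G2/M members were past 2-fold higher, against 10.7% of measured genes, with median log2 ratios of 2.07 and 2.45 against -0.37. Kif23 was 0.562 CP10k in cluster 15 and 0.574 in neutrophil-like cells.

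Other unnamed clusters had intermediate shares. In cluster 22 (118 cells, led by the stromal genes Dcn and Col1a2) 16.1% (9.98 to 24.0) were G2/M cells by 17 genes, with summed levels of 5.97 CP10k for G1/S and 6.06 for G2/M members. In cluster 26 (122 cells, led by Ccr7 and Ccl22, genes of migrating dendritic cells) the share was 15.6% (9.64 to 23.2), and 13.1% (7.69 to 20.4) had at least 10 members. Beside dendritic markers at 15.3 CP10k, cluster 26 had microglia markers at 86.8 and monocyte/macrophage markers at 37.9. In its G2/M cells microglia markers summed to 85.7 CP10k, and 42.1% of those cells were shared. The part of other cell types in its share was not tested. In cluster 25 (261 cells) 86.2% were G2/M cells by 22 genes and 23.8% by 17.

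In the naive brain, the arms by label did not differ beyond counting error in the share of G2/M cells in any of the authors' clusters named here. Among microglia-like cells, the class that the toxin targets, 20 of 134 (14.9%, 9.36 to 22.1) of the cells labelled control and 88 of 686 (12.8%, 10.4 to 15.6) of those labelled depleted were G2/M cells by 17 genes, a ratio of 0.859 (0.524 to 1.48), and by 22 genes the ratio was 1.03 (0.740 to 1.47). Without shared barcodes the shares were 11.6% and 12.9%. Mki67 was 1.13 CP10k (150 UMIs in 25 cells) and 1.11 (763 UMIs in 106 cells), Cdk1 0.384 and 0.386, Ube2c 0.866 and 0.846, Cenpf 0.625 and 0.561, and Top2a 1.02 and 0.774. Of the 8 measured G1/S and G2/M members 7 had a lower level under the depleted label (where 39.7% of measured genes were higher), and none was past 2-fold in either direction, against 0.284% of measured genes higher and 0.977% lower. All 8 reached 0.5 CP10k under the control label, so none was measured through the depleted label alone. Their count describes and supports nothing. The intervals allow a change in either direction of the size they span.

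The shares of the other naive classes had ratios whose intervals held 1. By 17 genes the shares in the samples labelled control and depleted were 5.08% and 4.32% in T-like cells (ratio 0.849, 0.25 to 4.48), 16.2% (18 of 111) and 19 of 172 in monocyte/macrophage-like cells (0.681, 0.338 to 1.38), 3.09% and 3.16% in mural-like cells and 8.16% and 7.14% in neutrophil-like cells. Beside mural markers at 58.4 CP10k, the mural-like cluster had endothelial markers at 34.3 and microglia markers at 20.6. In T-like cells 7 of 7 measured members of the lists were lower in the sample labelled depleted, among them Ube2c (28 UMIs in 3 cells against 90 in 38 cells), while 48.2% of measured genes were higher there. None was past 2-fold, against 0.462% of measured genes higher and 0.675% lower. In monocyte/macrophage-like cells 5 of 5 measured G2/M members had a lower level under the depleted label, at a median log2 ratio of -0.45, while 42.6% of measured genes were higher there, and the summed levels were 0.743 times as high for the 17 G2/M members (0.648 to 0.853) and 0.640 times for the 16 G1/S members (0.556 to 0.738). These intervals count UMIs as independent, which those of 1 cell are not. The measured members of T-like and monocyte/macrophage-like cells all reached 0.5 CP10k under the control label. None was measured through the depleted label alone, so the counts of lower members describe and support nothing. No measured member was past 2-fold in monocyte/macrophage-like cells, against 0.451% of measured genes higher and 1.35% lower, in mural-like cells, against 0.661% and 1.64%, or in neutrophil-like cells, against 6.02% and 1.62%. In that order only 5, 1 and 4 members of the G2/M list were measured, and none of the G1/S list.

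The authors' surface gates for monocytes gave other values, with tumour-like cells in them. In the naive Ly6CHigh gate, 9 of 57 cells labelled control (15.8%, 7.48 to 27.9) and 34 of 93 labelled depleted (36.6%, 26.8 to 47.2) were G2/M cells, and 5 and 29 cells of the gate were tumour-like. Without the tumour-like cells, a choice made after seeing the data, the shares were 5 of 52 (9.62%, 3.20 to 21.0) and 8 of 64 (12.5%, 5.55 to 23.2). In the naive Ly6CLow gate they were 11 of 153 (7.19%) and 22 of 120 (18.3%), with 7 and 18 tumour-like cells, and 2.74% (4 cells, 0.751 to 6.87) and 6.86% (7 cells, 2.80 to 13.6) without them. In the Ly6CLow gate of the blood they were 18 of 190 (9.47%, 5.71 to 14.6) and 14 of 503 (2.78%, 1.53 to 4.63), with 11 and 8 tumour-like cells, and 8 of 179 (4.47%, 1.95 to 8.62) and 8 of 495 (1.62%, 0.700 to 3.16) without them. Without the tumour-like cells the intervals of the labels overlapped in each of these 3 gates. With those cells in, the intervals already overlapped in both naive gates (Ly6CLow 3.64 to 12.5 and 11.9 to 26.4). In the blood gate they did not.

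In naive NK-like cells 3 of 5 measured G2/M members were past 2-fold lower in the sample labelled depleted, against 1.35% of measured genes, and none higher, against 1.45%; these rested on a few cells. Mki67 had 24 UMIs in 2 of 36 cells labelled control and 18 UMIs in 5 of 110 labelled depleted, Ube2c 31 UMIs in 5 cells and 7 UMIs in 6 cells, and Cenpf 19 UMIs in 2 cells and 4 UMIs in 4 cells. The number of G2/M cells by 17 genes was 2 in each sample, with a ratio of shares of 0.327 (0.0237 to 4.52). Molecules within a cell are not independent draws from the sample, so the level is that of 2 cells. The 5 measured G2/M members all reached 0.5 CP10k under the control label, so their count supports nothing. Under the depleted label the summed level was 0.234 times as high for the 17 G2/M members (0.177 to 0.309). For the 16 G1/S members it was 1.33 times as high (1.04 to 1.72), although the 2 measured G1/S members were lower. These intervals, too, count UMIs as independent.

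In the authors' blood clusters outside the microglia-like and tumour-like cells the shares were low and did not differ by label beyond counting error. By 17 genes they were 1.86% in both samples for neutrophil-like cells (10 of 537 and 8 of 429), and none of 966 had at least 10 members, which allows up to 0.311%. They were 1.05% and 1.30% in nonclassical monocyte-like cells, 3.12% and 1.03% in monocyte/macrophage-like cells (ratio 0.328, 0.0313 to 2.00), 3.88% and 5.83% in T-like cells and 0 of 148 and 2 of 101 in B-like cells. Apart from Hmgb2 and Kif23, no member reached 0.5 CP10k in neutrophil-like cells. No measured member was past 2-fold in any of the 7 blood clusters compared, but few were measured. Measured G1/S and G2/M members were 0 and 2 in neutrophil-like and 0 and 5 in microglia-like cells. They were 0 and 1 in nonclassical monocyte-like and in monocyte/macrophage-like cells. In B-like, T-like and tumour-like cells they were 1 and 1, 3 and 4, and 15 and 21. The measured genes past 2-fold higher and lower were 0.0864% and 0.561% in neutrophil-like, 0.99% and 1.54% in nonclassical monocyte-like, 0.732% and 0.669% in microglia-like, 0.42% and 0.691% in monocyte/macrophage-like, 0.745% and 0.541% in B-like, 1.11% and 0.216% in T-like and 0.171% and 0.514% in tumour-like cells.

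Brain-like cells of the blood matrix had shares close to those of the brain matrices that share their barcodes. Microglia-like cells had 9.40% (control label) and 8.12% (depleted label), or 14.3% of 42 and 7.69% of 39 without shared barcodes. Beside microglia markers at 89.2 CP10k, this blood cluster had neutrophil markers at 174 and monocyte/macrophage markers at 41.1. It also had mural markers at 23.2 and endothelial markers at 12.5. The part of these other types in its values was not tested. Of the measured G2/M members of microglia-like cells 5 of 5 were lower under the depleted label (53.8% of measured genes were higher there), at a median log2 ratio of -0.58. All 5 reached 0.5 CP10k under the control label, so their count supports nothing. In the same cells the summed level under the depleted label was 0.573 times as high for the 17 G2/M members (0.499 to 0.658). For the 16 G1/S members it was 1.23 times as high (1.05 to 1.45). These intervals count UMIs as independent, which those of 1 cell are not. The share of G2/M cells in tumour-like cells was 81.6% and 78.5%. Among tumour-like cells in both the brain with metastases and the blood matrix, 135 droplets, the same droplets gave a summed G2/M level of 52.0 CP10k in the first and 56.6 in the second, a difference between matrices in the same droplets.

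**Figure D5:**
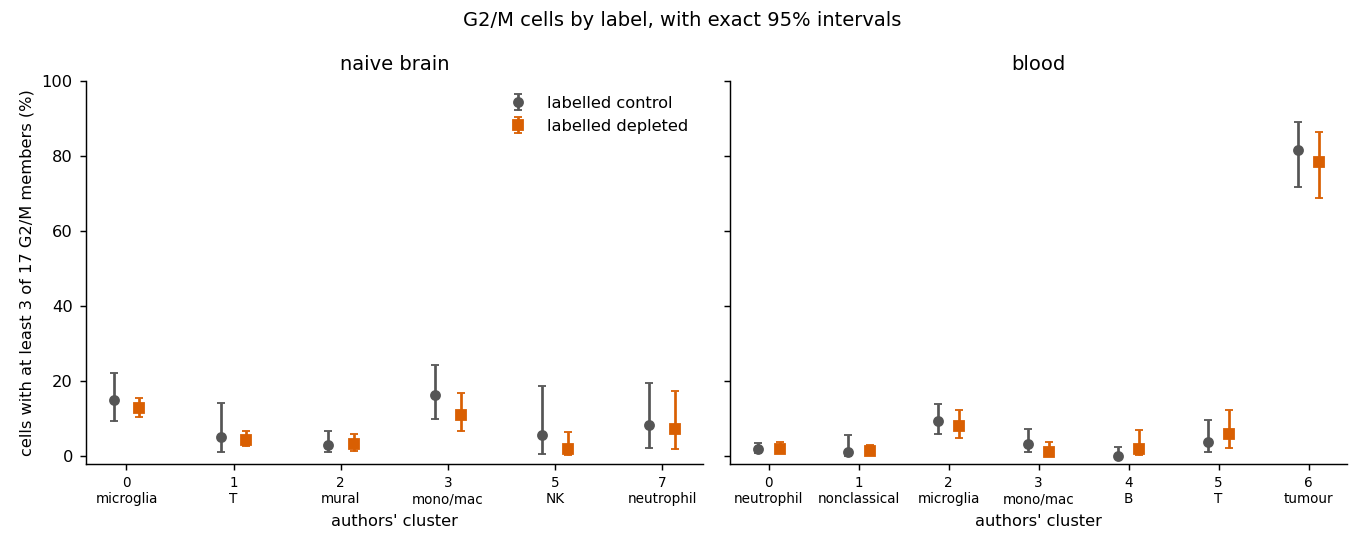
Share of G2/M cells by 17 genes (vertical axis, %, with exact 95% intervals) in the samples labelled control (circles) and depleted (squares), by the authors' clusters, in the naive brain and the blood. The intervals of the 2 labels overlap in every cluster shown.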

How the data were processed

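The labels' protocols give 10x 3' v3 libraries with antibody tags and hashtags; per the submitters' processing notes, Cell Ranger 3.1, Seurat 3.1.1 and mm10 were used. Values in the deposited matrices are natural logs of depth-corrected UMI counts plus 1, with the correction made by the authors in each matrix on its own; with the log undone, 100% of values were whole (tolerance 1e-06). Raw UMI counts per cell (599 to 512965), clusters, gates and arms came from the authors' deposited annotation, whose other 69 columns were not used. Medians were 9613, 13647 and 5117.5 corrected UMIs per cell in naive brain, brain with metastases and blood.

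CP10k values were summed per class with Python 3.11.15, SciPy 1.17.1 and scanpy 1.11.5, and log2 ratios used a pseudocount of 0.1 CP10k. The brain with metastases was clustered without cell cycle genes (2000 variable genes, 30 components, resolution 1); the authors' clusters were kept elsewhere. A class name needed at least 3 markers. Ratios and intervals were tried on simulated counts drawn independently, which cannot show how UMIs grouped within cells affect the intervals. All members could be named, and for further pathway lists the highest and lowest pair of measured genes per comparison; 1 gene of these is not reported here. The members and lists were chosen with earlier results of these data known. The plan used 22 G2/M genes; counting over 17 was added after the filled-in genes were seen. No doublets were removed and no cell was left out.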

Additional observations from a re-analysis of the deposited data

How the results depend on the processing

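No paired analysis was possible because each arm and tissue is 1 hashed sample and every result comes from no test. Depth limits shares in small classes, ratios between genes can depend on the correction, and the brain with metastases has no arms. No called value reversed. The ratios between arms had no called direction by 22 genes, since every interval held 1. The cause of the changes below was not tested, except that a stricter or looser count of genes and thinned cells lower or raise shares by construction.

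The share of G2/M cells in the brain with metastases moved with the rule. Values follow in the order at least 2 of 22 genes, at least 5 of 22 genes, cells thinned to 1500 corrected UMIs, 17 genes, and at least 2 UMIs per gene. Tumour-like cells had 91.1%, 83.8%, 68.2%, 82.3% and 82.6%, T-like cells 77.3%, 22.7%, 9.61%, 11.4% and 22.2%, NK-like cells 62.5%, 5.18%, 1.83%, 3.35% and 12.5%, microglia-like cells 63.4%, 12.1%, 6.70%, 11.8% and 10.0%, and monocyte/macrophage-like cells 58.1%, 6.77%, 3.38%, 7.71% and 5.14%. Classes from marker scores gave 39.9% in T-like and 35.3% in NK-like cells, and resolution 2 gave 39.2% in T-like cells.

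The ratio of shares, depleted over control by label, was 1.03, 1.31, 1.08 and 0.900 by 22 genes in naive microglia-like, T-like, monocyte/macrophage-like and NK-like cells. It changed to 0.662 (thinned) and 0.651 (2 UMIs per gene) in microglia-like cells, 0.358 and 0.697 in T-like cells, and 0.546 and 0.645 in monocyte/macrophage-like cells, where 5 genes gave 0.609 and surface gates 2.20 (5 of 57 and 29 of 93 cells of that gate were tumour-like). In NK-like cells 5 genes, thinning and 17 genes each gave 0.327. In the blood it changed to 0.536 (5 genes) and 1.30 (thinned) in neutrophil-like, 0.369 and 0.615 in nonclassical monocyte-like, 4.92 (thinned) and 0.328 (17 genes) in monocyte/macrophage-like, and 0.587 without shared barcodes in microglia-like cells.

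With a pseudocount of 0.5 the median log2 ratios of tumour-like over other cells, G1/S then G2/M, were 0.95 and 1.41 (T-like), 1.19 and 1.66 (NK-like), 1.24 and 1.38 (microglia-like), and 1.42 and 1.56 (monocyte/macrophage-like). With 0.02 they were 2.92 for G2/M (T-like), 2.55 and 4.06, 2.92 and 2.92, and 3.15 and 3.88.

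Not run were surface gates for naive mural-like and blood microglia-like and tumour-like cells, the earlier annotation table for blood microglia-like, B-like, T-like and tumour-like cells, and, where an arm had no such cell, 2 UMIs per gene in blood monocyte/macrophage-like cells and 5 genes, 17 genes and 2 UMIs in blood B-like cells.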

Other observations

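Endothelial-like cells of the brain with metastases were 3 clusters whose shares of G2/M cells by 17 genes had overlapping intervals. The share was 8.04% (3.74 to 14.7) of 112 cells in cluster 11, led by Plvap, a gene of fenestrated vessels, and by Esm1, a gene of sprouting endothelium. It was 4.35% (1.90 to 8.39) of 184 cells in cluster 12, led by the venule genes Ackr1 and Vwf, and 3.46% (1.59 to 6.47) of 260 cells in cluster 24, led by the barrier genes Slco1c1 and Cldn5. The summed G2/M level of the same 17 genes was 3.69, 1.84 and 0.770 CP10k.

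Among antigen-presenting and macrophage clusters that stayed unnamed, G2/M cells were 14.8% (8.98 to 22.3) of the 122 cells of cluster 19, led by Cd209a and Mgl2, and 14.1% (7.26 to 23.8) of the 78 cells of cluster 1, led by Ctsk and Apoe. In the monocyte/macrophage-like class the share was 8.87% (6.68 to 11.5) of 575 cells in cluster 3, led by Cxcl9 and Ccl8, and 3.66% (1.35 to 7.79) of 164 cells in cluster 27, led by F13a1 and Chil3, genes of freshly recruited monocytes. The last 2 intervals overlap.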
